A study of Canis lupus familiaris with 55 samples.

Results

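The control ovary time course comprises 9 of the 55 RNA-seq libraries of the study, taken from the gonads of XX embryos of the control pedigree at gestational days 37, 39 and 44 (d37, d39 and d44), with 3 libraries per day. The members were chosen by their labels, as XX age-matched controls of these days, and no expression value was used. Each library holds the RNA of the gonad pair of 1 embryo. The XX controls are *SRY*-negative embryos of wild type (-/-) beagle parents, which lack the insertion on CFA9 that the model pedigree carries. The 3 embryos of a day come from 1 litter, so day and litter cannot be told apart, and p-values measure the spread between littermates. Libraries were pooled for sequencing as XX DSD or as control libraries.

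The ovaries were compared with 3 other sets. The XY controls are *SRY*-positive embryos of the same 3 litters, 3 per day, whose gonads are testes. A pool of 6 XX control embryos at d34 is 1 library and is given as a value without a test. The submitters' design notes call these embryos a Beagle/Labrador retriever mix, whereas the study names beagle parents for its age-matched controls. The XX DSD gonads come from *SRY*-negative embryos of the model pedigree, homozygous or heterozygous for the insertion, in which XX gonads can form testis tissue. Of these, 8 libraries of d37 and d39 (4 litters) and 4 libraries of d42, d43 and d44 (3 litters) were used.

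In the fetal mammalian ovary, the supporting cells become pre-granulosa cells under the control of WNT4, R-spondin 1 and FOXL2, and they enclose the germ cells, which enter meiosis. In the fetal testis, *SRY* switches on *SOX9*, the supporting cells become Sertoli cells that secrete AMH, and interstitial Leydig cells make androgens from cholesterol. The fetal ovary normally makes little steroid and holds, besides these cells, stroma, vessels, blood cells and a surface epithelium.

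Values are FPKM, that is fragment counts divided by transcript length and by library size, which the authors scaled across libraries. Differences are log2 fold changes of FPKM + 1 with their standard error (SE), which understate the change of weakly expressed genes, and folds are ratios of the mean FPKM of 2 days. Of 58781 loci, 20723 passed the filter of a mean of at least 1 FPKM on 1 of the 3 days, and 10321 of these carry a gene symbol of their own. A locus was called at an adjusted p under 0.05 (limma, Benjamini-Hochberg over all loci tested).

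The tissue labels were read against marker genes first. *FOXL2*, the pre-granulosa transcription factor, was at 17.9 FPKM or more in every XX library and at 1.09 or less in every XY library. *SOX9*, the Sertoli cell transcription factor, was at 4.28 FPKM or less in the XX libraries and at 53.6 or more in the XY libraries. *KDM6A*, an X-linked gene that escapes X inactivation in humans, was at 7.28 to 8.63 FPKM in the XX libraries and at 3.89 to 6.14 in the XY libraries. Within a day, the correlation of log2 values between 2 ovary libraries was 0.89 to 0.899 at d37, 0.909 to 0.922 at d39 and 0.926 to 0.93 at d44. The files give no read counts, but the steps between low values gave a relative depth of 0.5 to 1.13 at d37, 0.901 to 1.43 at d39 and 1.04 to 1.45 at d44, as a multiple of the median of the 18 control libraries. The 3 values were 0.5, 1.13 and 0.747 at d37 and 1.40, 1.45 and 1.04 at d44, so 2 of the d37 libraries were shallower than every d44 library, and the part of depth in the differences was not tested.

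Between d37 and d44, 1605 loci were higher and 721 lower, which is 7.75% and 3.48% of the loci tested. When the libraries were rescaled to the same median ratio, the split was 1199 higher and 1034 lower. With a ratio of means of at least 2 and a mean of at least 4 FPKM on 1 of the 2 days required as well, 137 loci (0.661%) were higher and 98 (0.473%) lower. Between d37 and d39, 323 loci (1.56%) were higher and 147 (0.709%) lower, of which 42 (0.203%) and 23 (0.111%) met all criteria. Between d39 and d44, 280 loci (1.35%) were higher and 89 (0.429%) lower, of which 35 (0.169%) and 27 (0.13%) met all criteria. For this last interval, the rescaled libraries gave 216 higher and 120 lower. The count for d44 against d37 fell to 527 when the XY libraries were included in the fit (342 higher and 185 lower), and it was 872 to 1487 without replicate 2 or 3 of d37 or any 1 library of d44, lowest without replicate 3 of d44. For d39 against d37 it was 100 without replicate 2 of d37, and for d44 against d39 it was 120 without replicate 2 of d39.

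The level at d39 of these loci is given as a description, since the choice of loci by their d44 against d37 difference favours a d39 mean between the other two. It lay between them for 81.7% of the higher and 85.7% of the lower loci (47.8% of all loci tested), and a median of 53.8% and 59.2% of the log2 change had taken place by d39. For 408 of the higher loci (25.4%), every d39 library was above every d37 library and below every d44 library, and for 178 of the lower loci (24.7%) the reverse order held. Over all loci tested, these orders held for 2.14% and 1.01%. The d37 and d44 libraries did not overlap for any of the 1605 higher and 721 lower loci. With 3 libraries per day this follows largely from the call itself, and the share over all loci was not computed, so it adds no support. The d34 pool lay below all 3 d37 libraries for 44.7% of the higher loci (29% of all loci) and above all 3 for 32.3% of the lower loci (28.6% of all loci).

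Large rises were seen in *NDUFA4L2*, *IRX5*, *DPT*, *LGALS3* and *THBS4*. *NDUFA4L2*, which encodes a mitochondrial protein induced by low oxygen, was at 1.42, 3.08 and 2.09 FPKM in the 3 libraries of d37, 13.8, 15.4 and 9.37 at d39, and 34.7, 38.98 and 37.6 at d44. The days did not overlap, and the ratio of means was 16.9 (log2 change 3.60, SE 0.21, adjusted p = 0.00027). The d34 pool had 23.3 FPKM, above every d37 and d39 library.

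*LGALS3*, which encodes the lectin galectin-3, rose from 2.27 to 3.20 FPKM at d37 over 7.05 to 8.35 at d39 to 13.3 to 15.1 at d44, and was called in both intervals (5.38-fold, adjusted p = 0.00016). *DPT*, for the matrix protein dermatopontin, was at 0.657, 0.404 and 0.772 FPKM at d37, 1.85, 2.06 and 1.65 at d39, and 5.38, 5.20 and 5.46 at d44 (8.76-fold, adjusted p = 0.00025). For both genes the days did not overlap. A lack of overlap between d37 and d44 was part of the rule for naming genes, here and for *NDUFA4L2*, so it adds no support. Separation of all 3 days was a further naming rule, under which *NDUFA4L2*, *DPT* and *CRHR1* were also picked, and it adds none either. *CRHR1*, the receptor of corticotropin-releasing hormone, was at 0.251 to 0.634 FPKM at d37, 1.06 to 1.92 at d39 and 3.91 to 7.27 at d44 (10.8-fold, adjusted p = 0.0031).

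The timing differed among the other rising genes. *DCT*, the melanin enzyme dopachrome tautomerase, was at 0.123 to 0.497 FPKM at d37, 3.59 to 4.82 at d39 and 3.73 to 7.11 at d44, and was called higher between d37 and d39 (adjusted p = 0.0092), while d39 and d44 overlapped (adjusted p = 0.44). *BARX2*, a homeobox gene, had the same shape, at means of 0.713, 3.70 and 4.03 FPKM (d39 against d37, adjusted p = 0.027). In contrast, *THBS4*, for the matrix protein thrombospondin 4, was at 3.59 to 4.67 FPKM at d37 and 3.38 to 4.03 at d39 but at 13.6, 17.4 and 17.97 at d44 (d44 against d39, log2 change 1.87, adjusted p = 0.0005). *EPDR1* showed the same late rise, from means of 2.07 and 2.41 FPKM to 8.61. *UPB1*, the last enzyme of pyrimidine breakdown, was high only in the d39 litter, at 5.87, 6.08 and 6.03 FPKM against 0.675 to 2.26 at d37 and 0.874 to 2.64 at d44 (adjusted p = 0.040 and 0.048).

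**Figure D1:**
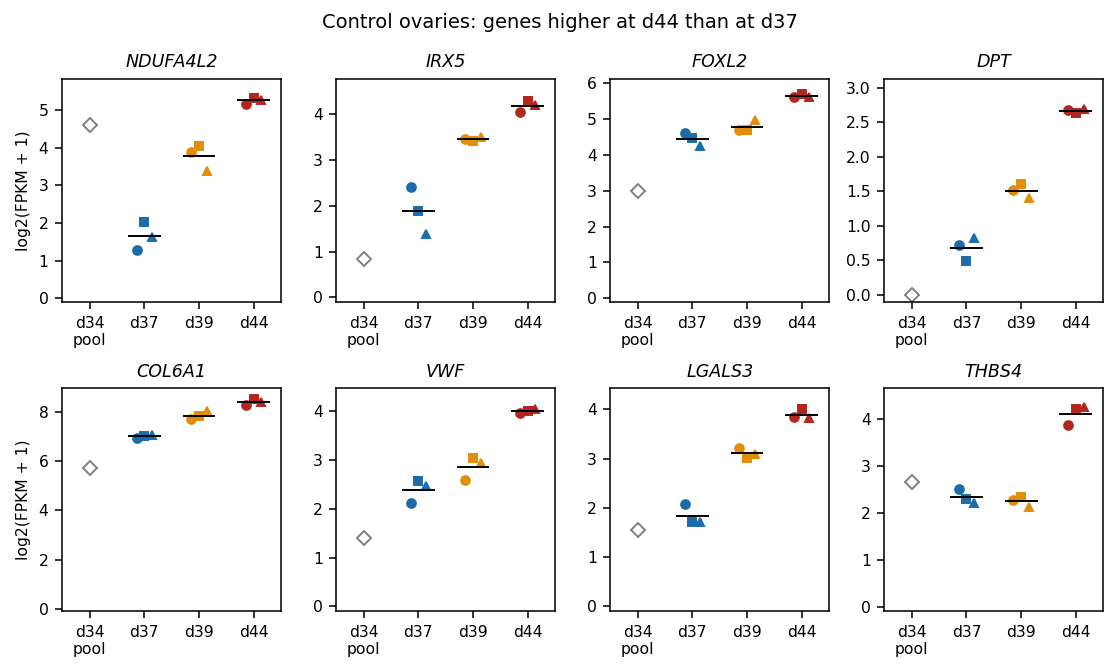
Expression in log2(FPKM + 1) (vertical axis) of 8 genes called higher at d44 than at d37 in control ovaries, by gestational day (horizontal axis). Each filled point is 1 embryo, its shape gives the replicate number, the bar is the mean of the 3 libraries of a day, and the open diamond is the pool of d34. The days do not overlap for *NDUFA4L2*, *DPT*, *LGALS3* and *IRX5*, *THBS4* is at the same level at d37 and d39, and *NDUFA4L2* is at 23.3 FPKM in the d34 pool. A lack of overlap between d37 and d44 was part of the rule by which genes were named. Separation of all 3 days was a further naming rule, under which *NDUFA4L2*, *DPT* and *IRX5* were also picked.

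Of 14 tested pre-granulosa genes, 7 were called higher and none lower, against 7.75% of all loci, and the median log2 change was 0.36 against 0 over all loci. Their number was 4 to 8 when a library was left out, 4 after rescaling, 5 after quantile normalization and 3 in the fit with the XY libraries, with none lower in any of these. *FOXL2* was at 23.5, 21.0 and 17.9 FPKM at d37, 25.0, 24.8 and 30.4 at d39, and 47.5, 50.2 and 47.8 at d44. The rise lay mostly in the second interval (1.82-fold, adjusted p = 0.014), and d44 was 2.33-fold above d37 (log2 change 1.19, SE 0.11, adjusted p = 0.0012). The locus lies on the minus strand of CFA23, at chr23:35145964-35147181 (CanFam3).

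*IRX5*, an Iroquois transcription factor of the ovarian supporting cells, was at 4.30, 2.72 and 1.59 FPKM at d37, 10.03, 9.69 and 10.3 at d39, and 15.5, 18.7 and 17.6 at d44 (6.01-fold, adjusted p = 0.0015). Its neighbour *IRX3* was at 0.670 to 1.07 FPKM at d37, and the levels of 2.73 to 3.08 at d39 and 3.07 to 3.71 at d44 overlapped (d39 against d37, adjusted p = 0.0092). Both lie on CFA2, *IRX5* at chr2:60957233-61024721 on the minus strand and *IRX3* at chr2:61555486-61559414 on the plus strand. Both were called between d37 and d39 and neither between d39 and d44 (adjusted p = 0.61 for *IRX3* and 0.16 for *IRX5*).

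*RSPO1*, which encodes the WNT-potentiating ligand R-spondin 1, was at 57.6 to 63.8 FPKM at d37, 73.7 to 89.3 at d39 and 90.0 to 106 at d44 (1.63-fold, adjusted p = 0.0041). This rise was not called in the fit with the XY libraries (adjusted p = 0.24). *BMP2*, *EMX2* and *KITLG*, the ligand of the germ cell receptor KIT, were also called higher, by log2 changes of 0.41, 0.31 and 0.32, and *BMP2* lost its call in 8 of the 9 fits without a library. After rescaling, only *FOXL2*, *IRX5*, *IRX3* and *RSPO1* of the list were called, so *EMX2* and *KITLG* lost their calls too. The same held without replicate 3 of d39, replicate 3 of d37 or any 1 library of d44. *WNT4*, the WNT ligand of the ovarian pathway, was at means of 31.3, 34.4 and 35.2 FPKM and was not called (adjusted p = 0.42), nor was *FST*, its target follistatin, at 10.6, 18.7 and 13.8.

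Of 14 WNT/β-catenin targets, 2 were called higher, 3 lower and 9 not at all, against 7.75% higher and 3.48% lower of all loci. When a library was left out, 0 to 2 of these targets were higher and 1 to 3 lower. *SP5*, a transcription factor induced by WNT, was at 2.88 to 6.07 FPKM at d37, 8.88 to 12.3 at d39 and 9.30 to 12.96 at d44 (log2 change 1.25, adjusted p = 0.014, and 0.058 without replicate 3 of d44). The WNT antagonist *SFRP2* fell from 30.7 to 39.4 FPKM at d37 to 16.8 to 21.9 at d44 (log2 change -0.87, adjusted p = 0.0069). *SFRP1* and *LEF1* were also called lower, at log2 changes of -0.75 and -0.40, and each lost its call in 4 of the 9 fits without a library. *AXIN2* was at means of 36.2, 41.1 and 37.6 FPKM and was not called.

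Of 25 extracellular matrix genes, 12 were called higher and none lower (median log2 change 0.39), against 7.75% and 3.48% of all loci. When a library was left out, 9 to 12 were higher, with at most 1 lower. In the fit with the XY libraries 6 were higher. *COL6A1*, a collagen VI chain, was at 122, 128 and 133 FPKM at d37, 204, 224 and 257 at d39, and 311, 363 and 332 at d44 (2.63-fold, adjusted p = 0.00043). *COL6A3*, *COL12A1* and the fibrillin gene *FBN2* rose by log2 changes of 0.95, 1.11 and 1.05. *THBS2*, *VCAN*, *OGN*, *COL14A1*, *COL4A1*, *COL4A2*, *FN1* and *FBN1* completed the 12. The fibrillar collagens *COL1A1*, *COL1A2* and *COL3A1* were not called, at means of 397, 606 and 1034 FPKM at d37 and 589, 717 and 1030.2 at d44. In the testes of the same litters 17 of the 25 were called higher and none lower between d37 and d44, against 3.06% and 4.02% of 25223 loci tested there.

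Genes of hypoxia and glycolysis were called higher in 6 of 10 tested and lower in none (median log2 change 0.55), against 7.75% and 3.48% of all loci. Their number was 5 to 7 higher when a library was left out and 5 in the fit with the XY libraries. *BNIP3*, a mitochondrial protein of low-oxygen responses, was at 103, 79.8 and 76.4 FPKM at d37, 159, 177 and 170.2 at d39, and 195, 179 and 191 at d44 (2.17-fold, adjusted p = 0.0015). *HK2*, a hexokinase, was at 2.505 to 3.16 FPKM at d37, 5.02 to 5.26 at d39 and 6.21 to 6.40 at d44 (adjusted p = 0.00097). *PFKFB3*, *CA9*, *NDRG1* and *VEGFA* were called higher by log2 changes of 0.54, 0.69, 0.91 and 0.55. The d34 pool had 177 FPKM of *BNIP3*, 6.73 of *HK2* and 14.5 of *PFKFB3*, each above all d37 libraries. *NDRG1* (39.7 FPKM) and *VEGFA* (33.0) were also higher there than in any d37 library, but *CA9* was lower, at 8.04.

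Endothelial genes were called higher in 3 of 13 (1 to 3 when a library was left out), namely *VWF*, *SOX17* and *SOX18*, and lower in none. Of all loci, 7.75% were called higher and 3.48% lower. *VWF*, the clotting factor made by vessel walls, was at 3.35, 4.95 and 4.53 FPKM at d37, 5.04, 7.22 and 6.69 at d39, and 14.6, 15.2 and 15.5 at d44 (3.52-fold, adjusted p = 0.0011). *CDH5* and *PECAM1*, which mark all endothelial cells, were not called, at means of 32.8 and 21.9 FPKM at d37 and 42.3 and 25.0 at d44. *SOX18* lost its call in 8 of the 9 fits without a library. The summed level of the list was 186.8 to 230.1 FPKM at d37, 206.3 to 218.4 at d39 and 225.9 to 261.3 at d44. In such bulk samples, fewer cells of a type and less RNA per cell cannot be told apart.

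Genes of retinoic acid handling included 2 called higher of 14 and none lower, against 7.75% and 3.48% of all loci. *ALDH1A1*, a retinaldehyde dehydrogenase, was at 136, 131 and 139.7 FPKM at d37 and 140.2, 123 and 125 at d39, and at 229, 223 and 231 at d44 (d44 against d39, log2 change 0.82, adjusted p = 0.00087). *ALDH1A2*, the other dehydrogenase of the list, was at 90.2, 91.8 and 74.0 FPKM and was not called.

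*ALDH1A1* also belongs to the list of surface epithelium, where it was higher, and *KRT19* and *EPCAM* lower, among 7 tested. Of all loci, 7.75% were called higher and 3.48% lower. *KRT19*, a keratin of simple epithelia, was at 26.4 to 39.9 FPKM at d37, 32.4 to 41.04 at d39, and 12.8, 13.5 and 15.7 at d44 (d44 against d39, log2 change -1.36, adjusted p = 0.011). *EPCAM*, an epithelial adhesion molecule, was at means of 23.4, 31.7 and 16.5 FPKM (d44 against d39, adjusted p = 0.013). Neither was called between d37 and d39, and *EPCAM* lost its d44 against d37 call in 5 of the 9 fits without a library.

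The falling genes included 3 of steroid synthesis. *CYP17A1*, which makes androgen precursors, was at 406, 809 and 1288 FPKM at d37, 192, 324 and 310.0 at d39, and 244, 166 and 222 at d44. The d44 mean was 3.96-fold below that of d37 (log2 change -1.85, SE 0.40, adjusted p = 0.025), and d39 overlapped with d44 but not with d37. *STAR*, which brings cholesterol into mitochondria, was at 231, 462 and 746 FPKM at d37, 121, 143 and 188 at d39, and 175, 92.1 and 150.4 at d44 (log2 change -1.67, adjusted p = 0.041). *CYP11A1*, the first enzyme of steroid synthesis, was at 101, 182 and 281 FPKM at d37, 70.2 to 96.9 at d39 and 44.5 to 66.4 at d44 (log2 change -1.64, adjusted p = 0.021). None of the 3 was called between d37 and d39, and the d34 pool had 135, 74.0 and 19.9 FPKM of *CYP17A1*, *STAR* and *CYP11A1*, below every d37 library.

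These calls rest on few libraries with a wide spread at d37. Without 1 library, *CYP17A1* lost its call in 5 of 9 fits, *STAR* in 8 and *CYP11A1* in 3, with adjusted p-values up to 0.083, 0.12 and 0.074 and log2 changes from -2.29 to -1.46, -2.12 to -1.28 and -2.03 to -1.30. Of 13 tested genes of Leydig cells and steroidogenesis, 3 were called lower and 2 higher (median log2 change -0.24), against 3.48% and 7.75% of all loci. None was lower without replicate 2 of d37 or replicate 2 or 3 of d44, and 6 were lower without replicate 1 of d37. The summed level of the list was 2504 to 4692 FPKM at d37, 1796 to 2314 at d39 and 2117 to 2522 at d44. *FDX1*, the electron donor of the mitochondrial steroid enzymes, was at means of 132, 48.7 and 49.0 FPKM without a call (adjusted p = 0.058), and *SCARB1*, the receptor of high-density lipoprotein, at 185, 81.3 and 86.0 (adjusted p = 0.084). The genes called higher were *SRD5A1* and *CYP19A1*, the aromatase that makes oestrogen, which was at 1.07 to 1.30 FPKM at d37, 1.96 to 2.41 at d39 and 2.201 to 3.51 at d44 (adjusted p = 0.019). When a library was left out, 0 to 1 genes of the list were called higher, so these 2 were never called together. *CYP19A1* lost its call in 2 of the 9 fits. After rescaling, after quantile normalization and in the fit with the XY libraries, 1 gene was called higher.

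The 3 embryos of d37 kept 1 order in several falling genes, with replicate 1 lowest and replicate 3 highest. This held for *CYP17A1*, *STAR* and *CYP11A1*, for *GATM* (8.22, 11.9 and 18.2 FPKM), *PTH2R* (3.03, 4.36 and 10.1), *SLC22A6* (1.37, 4.25 and 7.16), *AJAP1* (3.13, 4.82 and 8.79) and *KCNK3* (3.28, 5.10 and 8.31). The same order held for 32.2% of the 721 lower loci and for 15.6% of all loci tested. Among the higher loci, the reverse order held for 26.5%, against 17.3% of all loci tested. *IRX5* (4.30, 2.72 and 1.59 FPKM) and *FOXL2* (23.5, 21.0 and 17.9) had the reverse order.

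The levels of several of these genes were compared with those in the testes of the same litter. At d37 the ovary mean was 29.1% of the testis mean for *CYP17A1*, 25.2% for *STAR*, 39.1% for *CYP11A1*, 27.1% for *PTH2R*, 59.5% for *KCNK3*, 20.2% for *AJAP1* and 8.44% for *SLC22A6*. It was 2.55% for *GATM*, an enzyme of creatine synthesis that Sertoli cells express, 0.551% for *AMH* and 3.08% for *SOX9*, which rose in the ovaries. At d44 the ovary was at 5.09% of the testis level for *CYP17A1*, 3.68% for *STAR*, 0.779% for *GATM* and 6.82% for *SOX9*. Of the adrenal markers, *CHGA*, for the chromogranin A of endocrine and nerve cells, was at 58.2 to 65.3 FPKM at d37, 50.3 to 64.9 at d39 and 50.8 to 57.6 at d44, and was not called. *MC2R*, the corticotropin receptor of the adrenal cortex, was at 0.448 FPKM or less in every ovary library and *TH*, the first enzyme of catecholamine synthesis, at 0.467 or less. The part of adrenal tissue in the steroid genes was not tested.

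**Figure D2:**
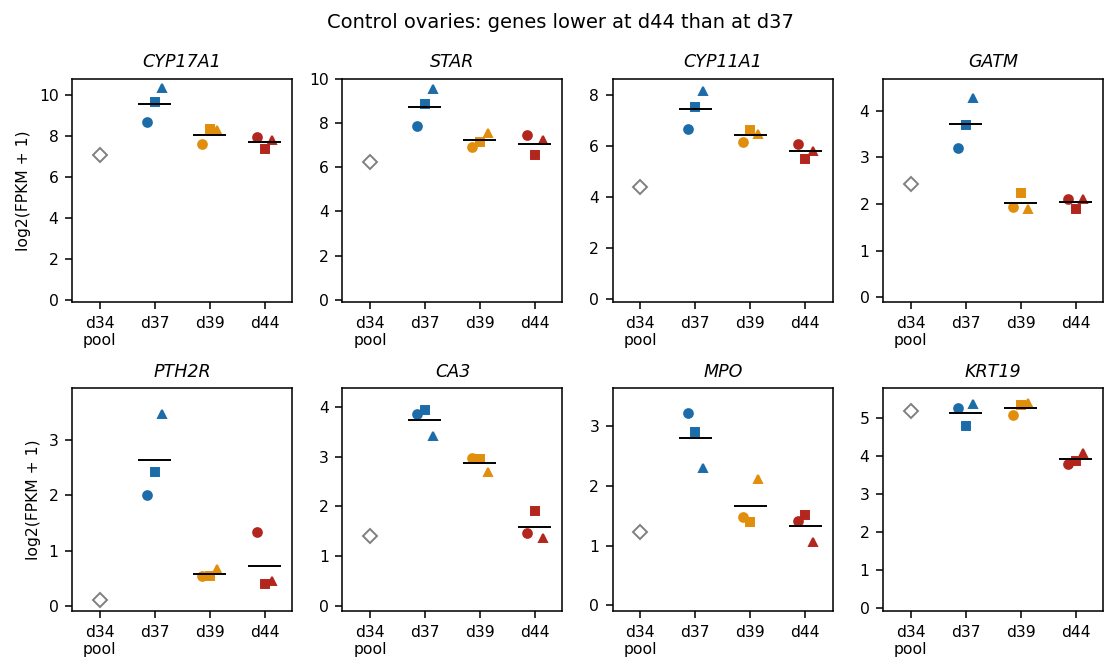
Expression in log2(FPKM + 1) (vertical axis) of 8 genes called lower at d44 than at d37 in control ovaries, by gestational day (horizontal axis). Symbols are as in the plot of the rising genes. For *CYP17A1*, *STAR*, *CYP11A1*, *GATM* and *PTH2R* replicate 3 (triangle) is the highest and replicate 1 (circle) the lowest at d37, the days do not overlap for *CA3*, and *KRT19* is lower only at d44. A lack of overlap between d37 and d44 was part of the rule by which genes were named. Separation of all 3 days was a further naming rule, under which *CA3* was also picked.

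Of the genes of the Sertoli list, *GATM* and *FGF9* were called lower and *SOX9* and *TESC* higher, among 10 tested. Of all loci, 3.48% were called lower and 7.75% higher. *FGF9* lost its call in 5 of the 9 fits without a library and *TESC* in 2. *GATM* fell from a mean of 12.8 FPKM at d37 to 3.09 at d39 (adjusted p = 0.019) and stayed at 3.10 at d44. *SOX9* was at 2.58, 1.92 and 1.90 FPKM at d37, 4.06, 3.50 and 3.44 at d39, and 3.87, 4.28 and 3.73 at d44 (log2 change 0.67, adjusted p = 0.0097), against means of 58.0 to 77.5 FPKM in the testes of the 3 days. *AMH*, the hormone of Sertoli cells, was read from the table of annotated genes, where it was at 15.9, 11.5 and 17.3 FPKM at d37, 7.90, 11.2 and 8.30 at d39, and 7.73, 8.32 and 7.08 at d44 (log2 change -0.85, SE 0.16, adjusted p = 0.0098).

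The other large falls were in genes of mixed roles. *CA3*, a carbonic anhydrase, was at 13.5, 14.3 and 9.60 FPKM at d37, 6.86, 6.70 and 5.48 at d39, and 1.78, 2.78 and 1.58 at d44 (6.09-fold, adjusted p = 0.00098). *RXFP2*, the receptor of the Leydig cell hormone INSL3, was at 4.77 to 5.86 FPKM at d37, 1.39 to 1.87 at d39 and 0.574 to 1.34 at d44, after 13.3 in the d34 pool (5.46-fold, adjusted p = 0.0015). *PTH2R*, a receptor of the parathyroid hormone family, was called lower by d39 (3.03 to 10.1 FPKM at d37 against 0.446 to 0.594 at d39, adjusted p = 0.042).

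*CKPI* was at 8.34, 8.64 and 7.48 FPKM at d37, 0.570, 0.240 and 3.34 at d39, and 0.168, 0.126 and 0.113 at d44 (log2 change -3.01, adjusted p = 0.0052). *MPO*, the myeloperoxidase of neutrophil granules, was at 8.34, 6.44 and 3.90 FPKM at d37, 1.78, 1.64 and 3.35 at d39, and 1.66, 1.84 and 1.08 at d44 (log2 change -1.48, adjusted p = 0.016, and 0.065 without replicate 3 of d44). *ELA2*, named for an elastase, was at 2.97 to 6.36 FPKM at d37 and 0.234 or less at d44 (log2 change -2.32, adjusted p = 0.016, lost in 2 of 9 fits without a library). The antimicrobial peptide gene *CAMP* was at 2.03 to 5.96 FPKM at d37 and 0.291 to 0.647 at d44 (adjusted p = 0.027, lost in 5 of 9 fits, at up to 0.0925). Replicate 3 of d39 was the highest of its day for *CKPI*, *MPO*, *ELA2* and *CAMP*. The part of blood cells in these levels was not tested. In the testes, *MPO* was at 2.88 to 21.3 FPKM over the 3 days and was not called (adjusted p = 0.24).

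All 7 tested erythroid genes had a negative log2 change (median -0.70), but none was called by limma (3 lower at an unadjusted p under 0.05), with *AHSP*, the chaperone of alpha-globin, at 14.004 to 40.8 FPKM at d37 and 5.27 to 18.4 at d44 (adjusted p = 0.13). Of 14 macrophage and immune genes, *AIF1* and *CX3CR1* were called lower and the scavenger receptor gene *CD163* higher, against 3.48% and 7.75% of all loci. *CD163* lost its call in 8 and *CX3CR1* in 5 of the 9 fits without a library. The summed level was 46.66 to 96.28 FPKM at d37 and 36.13 to 54.2 at d44 for the erythroid list, and 59.35 to 69.79 and 50.2 to 80.73 for the macrophage list.

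Of 8 tested genes of early germ cells and pluripotency, 1 was called higher and 1 lower, against 7.75% and 3.48% of all loci. The one called lower was *KIT*, the receptor tyrosine kinase of germ cells, at 6.72 to 10.6 FPKM at d37 and 4.96 to 6.39 at d44 (adjusted p = 0.049, lost in 8 of 9 fits without a library). *SOX17*, called higher, is also an endothelial gene. *LIN28A*, an RNA-binding protein of undifferentiated cells, was at means of 8.42, 10.8 and 5.34 FPKM (d44 against d37, adjusted p = 0.051), and its relative *LIN28B*, in the list of fetal growth genes, fell from 1.97 to 2.27 FPKM at d37 to 0.959 to 1.01 at d44 (adjusted p = 0.012).

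None of 5 later germ cell genes and none of 10 meiosis genes was called by limma, with 1 and 2 of them higher at an unadjusted p under 0.05, and the meiosis genes had a median log2 change of 0.13. Without replicate 1 or 2 of d39, 1 meiosis gene was called higher. *REC8*, a meiotic cohesin, was at 3.91, 5.58 and 5.26 FPKM, and *STRA8*, the gatekeeper of meiosis, at 0.12 or less in every ovary library. *DDX4*, a marker of all later germ cells, was at 0.26 or less. Among oocyte genes, *NPM2* was called lower (5.98 to 3.35 FPKM, adjusted p = 0.024), and *FIGLA* was listed at 0. *KRT18* and *HSPA8*, which are used widely, were listed at 0 too, so a value of 0 does not show absence.

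Cell cycle genes were called higher in 3 of 25 tested and lower in none, against 7.75% and 3.48% of all loci. These were *CDC20*, *CDT1* and *AURKB*, by log2 changes of 0.43, 0.41 and 0.28. When a library was left out, 1 to 3 were higher and at most 1 lower, and none was called in the fit with the XY libraries. *MKI67*, the proliferation marker, was at 26.9, 31.9 and 36.0 FPKM (adjusted p = 0.056). Among inhibitors of the cell cycle, *CDKN2C* and *BTG1* were called higher, of 7 tested. Immediate early and stress genes included 4 called higher of 15, namely *DDIT4*, *IER2*, *JUN* and *EGR1*, and none lower, and *EGR1* lost its call in each of the 9 fits without a library. *DDIT4*, which is induced by stress and low oxygen, was at 25.1 to 27.1 FPKM at d37, 33.9 to 39.1 at d39 and 47.6 to 52.0 at d44 (adjusted p = 0.00072). *FOS*, the best known immediate early gene, was at means of 1.09, 1.04 and 0.992 FPKM and was not called.

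**Figure D3:**
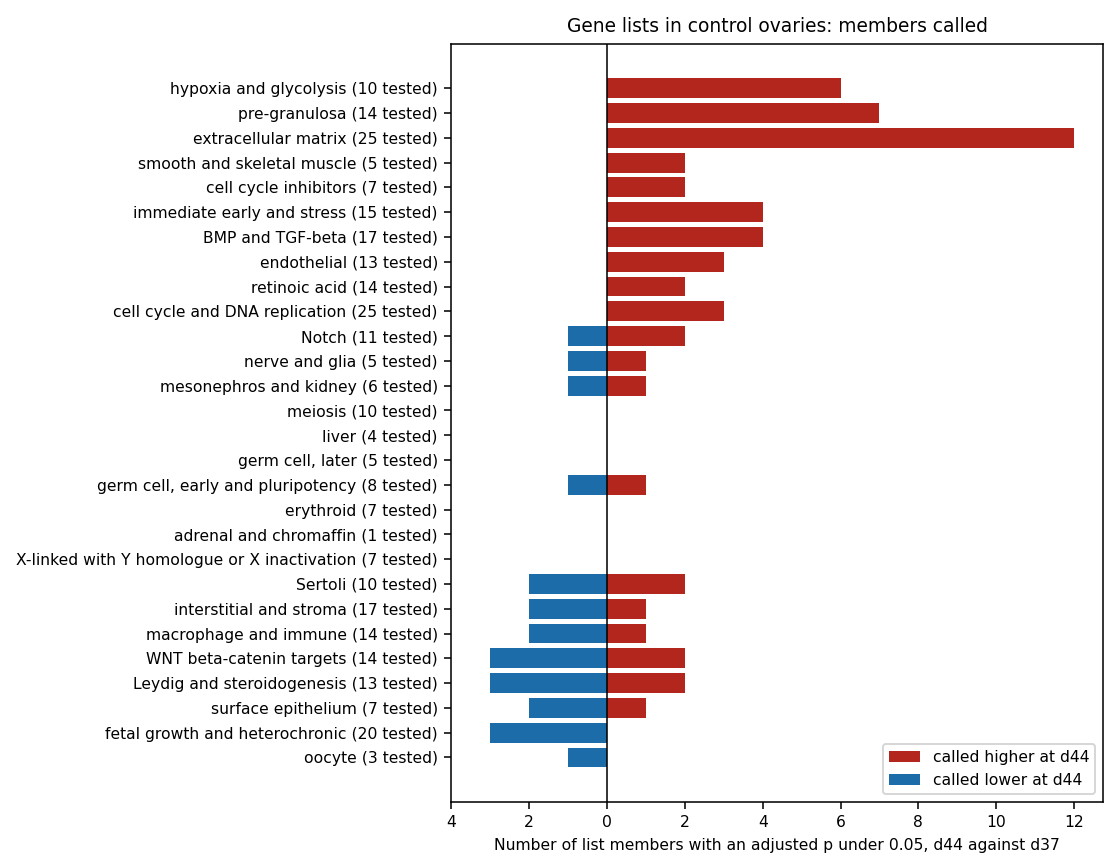
Number of members of each of 28 gene lists that were called higher (right) or lower (left) at d44 than at d37 in control ovaries, with the number of members tested in brackets. Of all loci tested, 7.75% were called higher and 3.48% lower. The longest bars are those of extracellular matrix (12 of 25 higher), pre-granulosa (7 of 14) and hypoxia and glycolysis (6 of 10), with none lower in these 3.

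The remaining lists held few calls, where 7.75% of all loci were called higher and 3.48% lower. For BMP and TGF-beta signalling these were 4 higher of 17 (*ID3*, *BMPR1B*, *BMP6* and *BMP2*), for Notch 2 higher and 1 lower of 11, and for interstitial cells and stroma 1 higher and 2 lower of 17. When a library was left out, 1 to 4 BMP and TGF-beta genes and 0 to 2 Notch genes were called higher, and 1 to 2 interstitial genes lower. Of 20 genes of fetal growth, *LIN28B*, *PEG3* and *PLAGL1* were called lower (1 to 3 when a library was left out). Markers of mesonephros and kidney had 1 higher and 1 lower of 6, nerve and glia 1 and 1 of 5 (0 to 1 for each of these 4 counts when a library was left out), muscle 2 higher of 5 (1 to 2), and liver, adrenal medulla and X-linked genes none of 4, 1 and 7 by limma (1 of 4 higher, none of 1, and 1 higher and 1 lower of 7 at an unadjusted p under 0.05). *SERPINA1*, a liver gene, was at 10.1 FPKM in replicate 1 of d37 and at 0.678 or less in the other 8 ovaries.

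The change between d37 and d44 was then compared between ovaries and testes of the same litters, as an interaction over 18 libraries. Of 25223 loci tested (limma), 209 (0.829%) moved more towards higher values in the ovary and 213 (0.844%) more towards lower values. Of the 1605 loci called higher in ovaries, 163 (10.2%) were called higher and 27 lower in testes, where 3.06% and 4.02% of all loci were called, and 121 had a called interaction. The interaction count of 422 was 232 without replicate 3 of the d44 ovaries and 931 without replicate 3 of the d39 testes. Of the 721 loci called lower, 88 (12.2%) were called lower and 40 higher in testes, and 89 had a called interaction. Both sexes share the litters, so this overlap does not separate day from litter.

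*NDUFA4L2* had a mean of 6.09 FPKM in testes at d37 and 8.15 at d44 (log2 change 0.55, adjusted p = 0.38), and the interaction was 3.06 (adjusted p = 0.0056). *IRX5* was at 0.372 FPKM or less in every testis (interaction 2.38, adjusted p = 0.00053), *DCT* at 0.0736 or less and *CRHR1* at 0.130 or less. The interactions were 2.34 for *DCT*, 2.13 for *CRHR1* and 1.58 for *FOXL2*. At such low testis levels the testis change is small on the scale of FPKM + 1. The interactions of *IRX5*, *DCT*, *CRHR1* and *FOXL2* therefore mostly repeat the ovary rise. *SLC52A3*, a riboflavin transporter, was at 6.78 to 8.62 FPKM in ovaries at d37 and 10.5 to 11.8 at d44, and at 33.4 to 37.4 and 11.5 to 13.2 in testes (interaction 2.00, adjusted p = 0.00014). Its call in the ovary was lost in 5 of the 9 fits without a library.

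In the other direction, *STAR* and *CYP17A1* fell in the ovary and were not called in the testis, where the means were 1906 and 2866 FPKM at d37 and 3777 and 4134 at d44 (interactions -2.67 and -2.40, adjusted p = 0.013 and 0.015). *SCARA5*, a ferritin receptor, was at 2.81 to 5.79 FPKM in ovaries at d37 and 1.21 to 1.85 at d44, and at 3.94 to 8.38 and 24.9 to 28.1 in testes (interaction -2.84, adjusted p = 0.0011). Its call in the ovary (limma, adjusted p = 0.045) was lost in 6 of the 9 fits without a library and in 8 of 10 other alternatives. *DPT* rose in both sexes, more in testes (log2 change 4.29) than in ovaries (1.99), with an interaction of -2.30 (adjusted p = 0.00014).

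Other genes were called in the same direction in both sexes. *LGALS3* rose from a mean of 5.01 to 28.7 FPKM in testes (log2 change 2.31, adjusted p = 0.00011), and the interaction of -0.24 was not called (adjusted p = 0.75). *VWF* rose from 6.03 to 18.9 FPKM (log2 change 1.51). *RXFP2* and *BCAN* fell in testes as well, by 1.46 and 1.21 on the log2 scale.

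**Figure D4:**
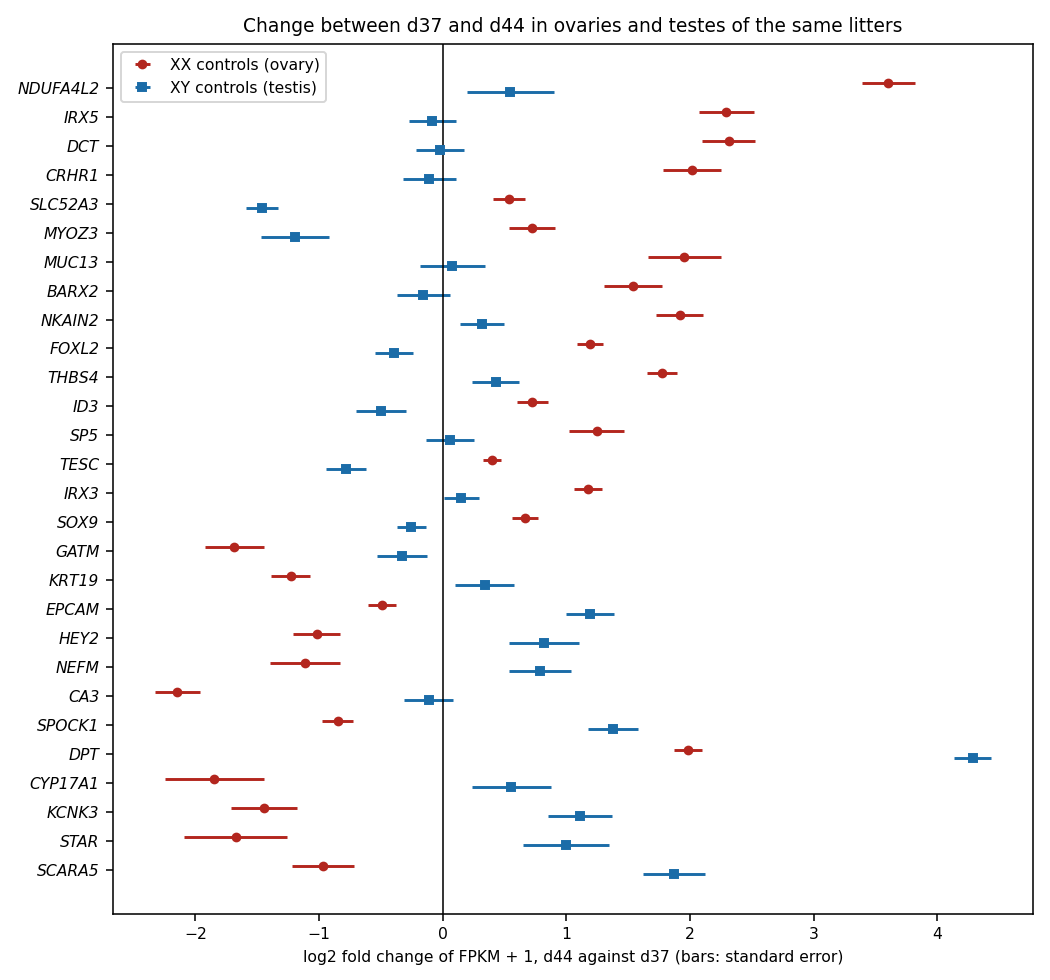
Log2 fold change of FPKM + 1 between d37 and d44 (horizontal axis) in control ovaries (circles) and in testes of the same litters (squares), for 28 named genes that were called in the ovary and whose change differed between the sexes. Bars are the standard error, and each mean rests on 3 libraries per day. *NDUFA4L2* has the largest difference towards the ovary (3.06) of these 28, and *SCARA5* the largest towards the testis (-2.84).

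A similar but shorter interval was read in XX DSD gonads, which share no library or litter with the controls. The early group held 2 libraries of d37 and 6 of d39, and the late group 1 of d42, 2 of d43 and 1 of d44. Its calls and sizes of change therefore do not match those of d44 against d37 in time. Between d37-39 and d42-44, 80 loci (0.326%) were higher and 137 (0.558%) lower of 24534, with a median log2 change of -0.16 over all loci, and after quantile normalization 36 were higher and 2 lower. With 1 value per litter 2 loci were called, and the count was 26 without the XX DSD replicate 2 of d43. It was 2287 without replicate 1 of d37 and 1274 without replicate 2 of d37. Of the loci higher in control ovaries, 37 were called higher and 1 lower in XX DSD gonads, and of those lower in control ovaries, 40 were called lower and none higher. By sign alone, 38.9% of the loci higher in control ovaries were higher in XX DSD gonads, against 45.0% of all loci, and 56.7% of those lower were lower, against 55.0%. After quantile normalization the median over all loci was 0.08, and the shares by sign were not recomputed on that scale.

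Among the named genes, *LGALS3* (log2 change 1.10, adjusted p = 0.017), *SP5* (0.89, adjusted p = 0.0019) and *DCT* (1.55, adjusted p = 0.025) were called higher in XX DSD gonads as well. *CYP11A1* (-2.18, adjusted p = 0.0072), *CYP17A1* (-1.52, adjusted p = 0.049), *KCNK3* (-1.18, adjusted p = 0.015) and *BCAN* (-1.38, adjusted p = 0.025) were called lower. The fit treats the libraries of a litter as independent. With litter as a random block, *LGALS3*, *SP5* and *CYP11A1* kept the call (adjusted p = 0.047, 0.0082 and 0.026), while *DCT*, *KCNK3*, *BCAN* and *CYP17A1* did not (0.062, 0.055, 0.085 and 0.13). With 1 value per litter none of the 7 was called (limma, 0.12 to 0.29, each at an unadjusted p under 0.05). *NDUFA4L2* (1.00, adjusted p = 0.21), *IRX5* (0.77, adjusted p = 0.10), *FOXL2* (0.48, adjusted p = 0.063), *RSPO1* (-0.18, adjusted p = 0.66) and *COL6A1* (0.35, adjusted p = 0.53) were not called there.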

How the data were processed

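Gonadal RNA of canine embryos was sequenced as single-end reads by the authors. Per the labels and Methods, reads were trimmed with cutadapt (1.5 in the submitters' processing notes), mapped to CanFam3 with TopHat2 2.0.13 and summarised with Cuffnorm of Cufflinks 2.2.1. The deposited FPKM values are divided by transcript length and scaled across libraries. The main table holds 58781 loci of an annotation-guided assembly, 23459 of them with an annotated gene, and names came from its annotation file. A second table holds 24581 annotated genes by identifier, and 21 of these were paired with symbols. Groups and days were taken from the labels, and litters from the study.

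From these values, a limma model (version 3.58.1, R 4.3.3) with a trended moderated variance was fitted to log2(FPKM + 1) of the 9 XX control libraries with day as a factor of 3 levels, two-sided, with Benjamini-Hochberg adjustment. Loci needed a mean of 1 FPKM in a group, and all criteria meant also a 2-fold ratio of means and a mean of 4 FPKM. The interaction used 18 control libraries. XX DSD libraries of d41 were left out because the table of the study gives them another age than the labels. By developmental criteria, however, the study staged these embryos between d39 and d42 and grouped them with its d42-44 gonads. Leaving them out thus departs from the grouping of the study. The fit was tested on simulated data. Relative depth was the commonest ratio between libraries among annotated genes up to 0.15 FPKM. Named genes had exactly 1 symbol and were up to 12 per direction with the largest ratio of means by all criteria without overlap (5 for each shorter interval), up to 6 by interaction or by stepwise order, the 4 members of each of 28 lists with the lowest adjusted p, and checks of the label and pathway genes of the study. The members and lists were chosen with earlier results of these data known. Values that fall outside this rule were chosen after they were seen. Strand was not used in counting as far as the sources used here say, so overlapping antisense transcripts cannot be told apart. Alternatives covered pseudocounts, filters, scalings, the second table, other fits and left-out libraries. Some named genes are not reported here.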

Additional observations from a re-analysis of the deposited data

Results flagged for a closer look

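The change between d37 and d44 differed between ovaries and testes (limma interaction, adjusted p under 0.05) for 28 of the named genes reported here that were called in the ovary. The values are the log2 change in ovaries minus that in testes of the same litters, with 3 libraries per sex and day. Genes that rose more or fell less in ovaries included *NDUFA4L2* (3.06), *IRX5* (2.38), *DCT* (2.34), *CRHR1* (2.13), *SLC52A3* (2.00), *MYOZ3* (1.92), *MUC13* (1.88), *BARX2* (1.70), *NKAIN2* (1.60) and *FOXL2* (1.58). Smaller differences of this sign were found for *THBS4* (1.34), *ID3* (1.22), *SP5* (1.19), *TESC* (1.18), *IRX3* (1.02) and *SOX9* (0.92). *IRX5*, *DCT*, *CRHR1*, *BARX2*, *FOXL2*, *SP5* and *IRX3* had testis means under 1 FPKM at d37 and at d44. Their testis change is small on the scale of FPKM + 1, and their values here mostly repeat the ovary rise.

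Genes that fell more or rose less in ovaries were *SCARA5* (-2.84), *STAR* (-2.67), *KCNK3* (-2.56), *CYP17A1* (-2.40), *DPT* (-2.30), *SPOCK1* (-2.23), *CA3* (-2.03), *NEFM* (-1.90), *HEY2* (-1.84) and *EPCAM* (-1.68). The others were *KRT19* (-1.57) and *GATM* (-1.36). The ovary call of d44 against d37 was lost in 5 or more of the 9 fits without a library for *STAR*, *MYOZ3*, *NEFM*, *SCARA5*, *CYP17A1*, *EPCAM* and *SLC52A3*. Groups of 3 libraries were not screened for single outlying samples.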

How the results depend on the processing

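The count of loci called between d37 and d44 (2326) stayed within 1.5 times under 10 of 12 alternatives that kept all libraries, and moved to 527 with the XY libraries in the fit and to 1183 for a slope per day. Left-out libraries gave 872 to 2313. For d39 against d37 (470) the counts were 197 without a filter on low values, 178 without trend, 1188 in the table of annotated genes and 105 with the XY libraries, and 100 to 563 without a library. For d44 against d39 (369) they were 215, 210, 588 and 75 under the same alternatives, and 120 to 387 without a library. The interaction count (422) stayed within 1.5 times under its 8 alternatives and was 232 to 931 without a library. The XX DSD count (217) was 127 with a pseudocount of 4, 133 without a filter, 38 after quantile normalization, 57 without trend, 754 in the table of annotated genes, 2 with 1 value per litter, 32 when litter entered as a random effect, 672 when the d41 libraries were added, and 26 to 2287 without a library. The lowest of these ranges came without replicate 3 of d44 ovaries (first comparison and interaction), replicate 2 of d37, replicate 2 of d39, and XX DSD replicate 2 of d43. The causes were not tested.

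Of 94 named genes called between d37 and d44, 47 kept their call in every fit without a library (35 of 57 higher and 12 of 37 lower). Of the 94, 42 also kept it in every alternative in which the gene was checked, and none changed direction there. Single genes were not checked for the slope per day. Of 147 named genes, the table of annotated genes covered 18 and the filter at 4 FPKM covered 115. Restricting the test to loci with a gene name gave 2730 calls, an alternative chosen after seeing the data. No paired analysis was possible because the replicate numbers are in accession order and pair no embryos. Depth is known only in relative terms, and genes under 1 FPKM were not tested.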
